A study of Rattus norvegicus with 12 samples.

Results

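The comparison described here sets vein grafts taken 14 days after surgery against veins of rats that were not operated on. Male rats received an external jugular vein to carotid artery bypass, in which a thin-walled vein is placed into the arterial circulation, and vein vessels were collected at day 7, 14 or 28 after surgery or, as day 0, from unoperated control rats. The members are the 3 arrays labelled day 14 and the 3 arrays labelled day 0, 6 of the 12 arrays of the series, and their values are described across 24684 gene probes, of which 21063 passed the filter on dim probes and were tested. No drug, transgene or strain is named in the sample labels, and no group carries a treatment other than the operation. The design text calls the 3 samples of each surgical day independent experiments, but it gives neither the number of animals behind an array nor any such statement for day 0, so p-values measure the spread between these samples. Each array reads RNA of a whole vessel, with wall, adventitia and adhering tissue together, and fewer cells of a type cannot be told apart from less RNA per cell.

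A vein moved into an artery meets higher pressure and flow. Vein grafts are known for early loss and regrowth of endothelium, entry of leukocytes, a change of medial smooth muscle cells from a contractile to a proliferative and matrix-producing state, and build-up of a neointima that can narrow the lumen. Smooth muscle contractile genes are driven in culture and in animals by serum response factor together with its coactivator myocardin. Macrophages take up and digest debris in lysosomes that are acidified by a proton pump.

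Values are log2 of the processed spot signal minus the 75th percentile of the array's gene spots, so 0 is the level of a fairly bright probe, and levels are compared within a probe only. The 75th percentile of the raw intensity lay between 493.6 and 990.7 over the 12 arrays, 71.9% to 82.6% of gene spots were well above background, and no spot was saturated. Arrays of day 14 correlated with each other at 0.979 to 0.993 over probes and arrays of day 0 at 0.917 to 0.963. Day 0 replicate 3 carried 460 non-uniform gene spots, against 3 on each of the other day 0 arrays, and non-uniform and outlier spots were left out. The labelled tissue was checked against its defining genes: Tagln, an actin-binding protein of smooth muscle, and Pecam1, an adhesion molecule of endothelium, were well above background on all 6 arrays, and no probe was matched to Acta2, Myh11 or Vwf.

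Across the array, 7901 of the 21063 tested probes, 37.5%, differed between day 14 and day 0 at an adjusted p under 0.05 (limma, Benjamini-Hochberg). Of all tested probes 4243, or 20.1%, were higher at day 14 and 3658, or 17.4%, were lower, and the median change over all tested probes was 0.02. Read per gene, with the brightest probe standing for each of 12353 genes, 22.5% were higher, 18.4% were lower and the median change was 0.04; counts in the gene lists are read against these shares. Changes of at least 8-fold were called for 689 probes upward and 440 downward. On 10743 probes, 51.0%, no day 14 array lay within the day 0 range or the reverse. Among the 16947 probes well above background on all 6 arrays, a filter chosen after seeing the data, 7024 were called.

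No slide held arrays of both days, so no value within a slide exists. Slides were inferred from scan times: day 14 replicates 2 and 3 shared a slide with day 28 arrays, day 14 replicate 1 shared a slide with the day 7 arrays, and 2 of the day 0 arrays shared a slide with a day 28 array. Day 0 replicate 3 was scanned alone and may belong to the slide of the other day 0 arrays. With slide as a fixed block, which links the days through day 28 alone, 1034 probes, 4.91%, were called; 1006 of them were also called without the block and all 1006 kept their sign, and 7866 of the 7901 calls (99.6%) had the same sign. Of the 297 genes chosen by the naming rule, all called without the block, 296 kept their sign with it and 98 stayed under an adjusted p of 0.05. Day 14 replicate 1 and day 0 replicate 3 did not inform the blocked change, as their slides held no day 28 array. The blocked fit left 5 residual degrees of freedom, against 8 without the block. The number of calls that the block kept is given with the main groups of genes. With the normexp background correction 3485 probes were called, and the number called with it is given for the lists discussed where it differs from the main count by more than 1.5 times.

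**Figure D1:**
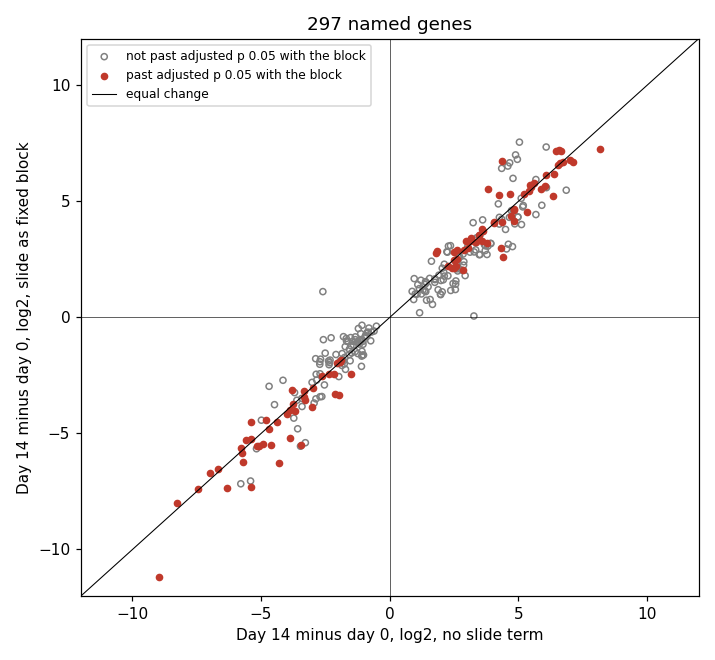
Change from day 0 to day 14 (log2) for the 297 named genes, without a slide term on the horizontal axis and with slide as a fixed block on the vertical axis; the line marks equal change, filled points have an adjusted p under 0.05 with the block (98 genes) and open points do not. Ereg is the only point outside the quadrants of equal sign.

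**Figure D2:**
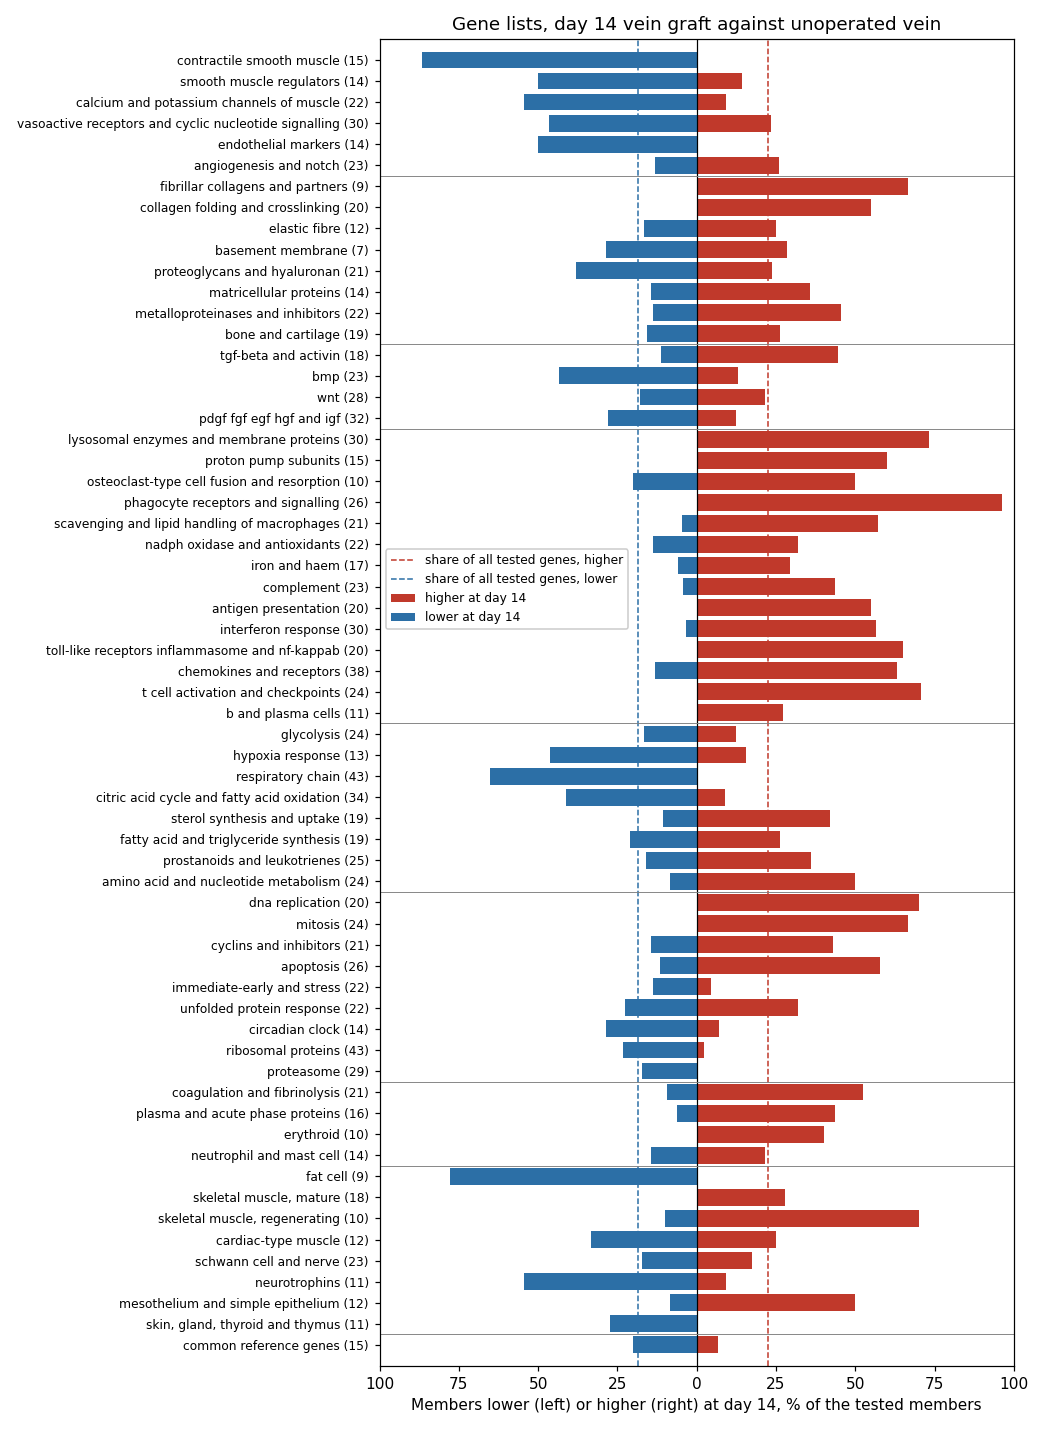
Share of the tested members of each of the 62 gene lists that were higher (right, red) or lower (left, blue) at day 14 at an adjusted p under 0.05, in percent, with the number of tested members in brackets. Dashed lines mark the shares over all tested genes, 22.5% higher and 18.4% lower; phagocyte receptors reach farthest to the right and contractile smooth muscle genes farthest to the left.

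**Figure D3:**
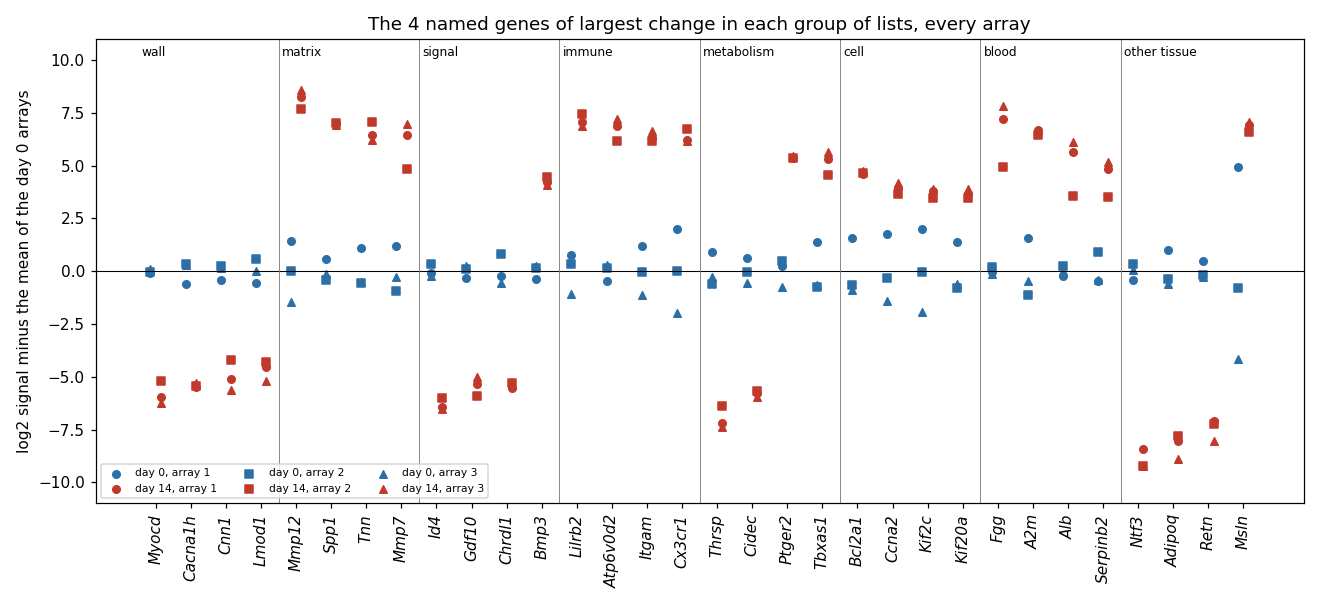
Value of each day 0 array (blue) and day 14 array (red) for the 4 named genes of largest change in each group of lists, as log2 signal minus the mean of the day 0 arrays; marker shape gives the array. The days do not overlap for any of the genes drawn, and Msln shows the widest day 0 spread, from -6.63 to 2.47 in log2 signal.

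Contractile genes of smooth muscle were lower in the graft. Of 15 tested members 13 fell and none rose, with a median change of -3.06; Ldb3 and Pdlim7, both scaffold proteins of the contractile apparatus, did not pass the test. Cnn1, calponin, which binds actin and damps its cycling with myosin, read 7.27, 7.92 and 7.83 on the day 0 arrays and 2.56, 3.46 and 2.03 at day 14, a fall of 4.99 ± 0.61 (SE, log2) with an adjusted p of 0.00018. Lmod1, a leiomodin that nucleates actin filaments, read 2.07, 3.20 and 2.64 before surgery and -1.91, -1.65 and -2.56 at day 14, and fell by 4.68 ± 0.35 (adjusted p = 1.04e-05). Every day 14 array lay below every day 0 array for both genes, with the day 0 arrays close together. Mylk, the kinase that phosphorylates myosin light chain, fell by 4.61 ± 0.52 (24.4-fold; adjusted p = 0.00011). Tagln fell less, by 1.98 ± 0.35 (adjusted p = 0.00172), from 8.04, 8.65 and 8.60 to 6.36, 6.84 and 6.15. The block by slide kept 4 of the 13 calls, and the median was -2.60 with it. Median levels of the list ran from 5.58 to 7.01 on the day 0 arrays and from 3.13 to 3.62 on the day 14 arrays.

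Regulators of the contractile programme split. Myocd, myocardin itself, read 1.26, 1.32 and 1.47 at day 0 and -4.61, -3.83 and -4.88 at day 14, a 55.5-fold lower signal (-5.79 ± 1.00, adjusted p = 0.00141). Srf, serum response factor, fell by 1.34 ± 0.25 (adjusted p = 0.00219) and Notch3, a Notch receptor of vascular smooth muscle, fell by 1.34 ± 0.27 (adjusted p = 0.00336). In this list 7 of 14 tested members fell and 2 rose, Klf5 by 1.88 ± 0.52 and Heyl by 0.93 ± 0.28 (adjusted p = 0.0172 and 0.028), the latter with 1 day 0 array missing because its spot was an outlier. Neither call held in every leave-one-out fit: Klf5 had an adjusted p of 0.0538 without day 0 replicate 2, 0.0539 without day 0 replicate 3 and 0.0533 without day 14 replicate 3, and Heyl had 0.188 without day 0 replicate 2 and 0.0552, 0.0799 and 0.0657 without day 14 replicates 1, 2 and 3. With normexp both were lost as well (0.63 and 0.65, adjusted p = 0.533 and 0.31). Klf4, a factor that represses contractile genes in cultured smooth muscle, did not pass the test. None of the 9 calls of this list was kept by the block by slide.

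Ion channels of muscle were mostly lower, with 12 of 22 tested members lower, 2 higher and a median of -1.93. Cacna1h, a T-type calcium channel, read 0.51, 1.46 and 1.44 at day 0 and -4.33, -4.30 and -4.16 at day 14 and fell by 5.40 ± 0.29 (adjusted p = 1.9e-06). The day 14 arrays lay close together, far below the day 0 arrays. Kcnmb1, the smooth muscle subunit of the large-conductance potassium channel, fell by 3.70 ± 0.48 (adjusted p = 0.000262), and Abcc9, the sulfonylurea receptor of vascular potassium channels, fell by 3.35 ± 0.20 (adjusted p = 3.84e-06). Trpc6, a cation channel opened by diacylglycerol, rose by 3.36 ± 0.57 (adjusted p = 0.00126), and Orai1, the pore of store-operated calcium entry, rose by 1.49 ± 0.38 (adjusted p = 0.0122). Slide blocking kept 6 of the 14 calls. Among vasoactive receptors and cyclic nucleotide signalling 14 of 30 fell and 7 rose; the soluble guanylate cyclase that senses nitric oxide was lower in both measured subunits, Gucy1b1 by -3.70 ± 0.26 (adjusted p = 8.32e-06) and Gucy1a1 by -2.94 ± 0.78 (adjusted p = 0.014). Pde3a, which breaks down cyclic AMP, fell by 3.41 ± 0.64 (adjusted p = 0.00224), a call that normexp lost (-1.53, adjusted p = 0.174). The block kept 2 of the 21 calls in this list, and 8 members were called with normexp.

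Endothelial genes were mixed in size, with 7 of 14 tested members lower, none higher and a median of -0.96. Esam, an adhesion molecule at endothelial junctions, fell by 2.72 ± 0.26 (adjusted p = 4.89e-05) and Emcn, the sialomucin endomucin, by 2.69 ± 0.28 (adjusted p = 7.46e-05). Tek, the angiopoietin receptor, fell by 1.44 ± 0.36 (adjusted p = 0.01; named after its value was seen). Of the endothelial junction genes Pecam1 and Cdh5, neither passed the test: Pecam1 changed by -0.45 (adjusted p = 0.604), with day 0 values of 3.61, 3.03 and 0.98, and Cdh5, VE-cadherin, by 0.64 (adjusted p = 0.0665). With slide as a block, limma kept none of the 7 calls, and with normexp 4 members were called. Among angiogenic and Notch genes 6 of 23 rose and 3 fell, with 3 called under normexp. Hes1, a Notch target, fell by 1.72 ± 0.27 (adjusted p = 0.000749), and Prox1, which specifies lymphatic endothelium and venous valves, was not well above background on any day 14 array and was at least 4.32-fold lower (adjusted p = 7.88e-05). For this bound each dim array was given either the probe's measured value or the dimmest spot signal that passed as well above background there, whichever was higher; all other bounds are formed alike. Angpt2, an endothelial regulator of vessel stability, fell by 1.57 ± 0.33 (adjusted p = 0.00432) and its change from day 0 was 0.03 at day 28. With normexp the change of Prox1 was -0.69 (adjusted p = 0.642).

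Genes of fibrillar collagen were higher. Of 9 tested fibrillar collagens and partners 6 rose and none fell, with a median of 1.37. Cthrc1, a secreted protein of injured arteries and matrix-forming fibroblasts, rose by 4.54 ± 0.74 (adjusted p = 0.000998), from 1.33, -0.03 and -1.79 to 4.38, 4.41 and 4.35, so the spread lay in the day 0 arrays. Col5a1, which starts collagen fibrils, read 1.52, 1.39 and 0.52 at day 0 and 4.66, 4.98 and 4.61 at day 14 and rose by 3.60 ± 0.28 (adjusted p = 1.47e-05). Enzymes that fold and crosslink collagen moved in the same direction where they passed the test: 11 of 20 rose and none fell, led by the prolyl hydroxylase subunit P4ha3 (3.50 ± 0.36, adjusted p = 7.22e-05) and the lysyl hydroxylase Plod2 (2.93 ± 0.38, adjusted p = 0.000241). A fixed slide block kept 1 of the 6 and none of the 11 calls.

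Other matrix families were less uniform. Tnn, tenascin-N, an extracellular glycoprotein of connective tissue and bone, read -1.57, -3.20 and -3.18 at day 0 and 3.79, 4.42 and 3.56 at day 14, a 95.1-fold higher signal (6.57 ± 0.47, adjusted p = 8.44e-06). Acan, aggrecan, the large proteoglycan of cartilage, had no day 0 array well above background and its day 14 signal was at least 16.4-fold higher (adjusted p = 0.000647), where its arrays read -1.93, -0.60 and -2.99; with normexp the change was 1.92 (adjusted p = 0.0991). Ltbp2, which binds fibrillin microfibrils, rose by 4.77 ± 0.94 (adjusted p = 0.00303). Spock2, a testican proteoglycan, fell by 5.18 ± 0.59 (adjusted p = 0.000122), and Omd, the small leucine-rich proteoglycan osteomodulin, fell by 2.87 ± 0.51 (adjusted p = 0.00168). The hyaluronan synthases parted: Has1 fell by 2.71 ± 0.42 (adjusted p = 0.000777), whereas Has2 had a change of 2.26 ± 0.70 (adjusted p = 0.0273) with arrays that overlapped between the days. The call of Has2 was lost without day 0 replicate 2 or 3 (adjusted p = 0.0859 and 0.0867) and without day 14 replicate 1 or 3 (0.0831 and 0.105). Over the proteoglycan list 5 of 21 rose and 8 fell, and over the matricellular list 5 of 14 rose and 2 fell, Sparcl1 by 3.02 ± 0.36 (adjusted p = 0.000152) and Ccn3 by 2.64 ± 0.69 (adjusted p = 0.0129). Basement membrane genes were split, with 2 of 7 higher and 2 lower, and the laminin chains Lama3 and Lamb2 were the falls (-1.81 ± 0.37 and -1.57 ± 0.40, adjusted p = 0.00357 and 0.0113). Normexp called 2 members of that list. Lamb2 lost its call with quantile normalization and with the deposited table (-1.14 in both, adjusted p = 0.0978 and 0.102).

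Among the named genes the largest rise was that of a matrix-degrading enzyme. Mmp12, macrophage elastase, read -1.40, -2.82 and -4.29 at day 0 and 5.40, 4.83 and 5.74 at day 14, a 286-fold higher signal (8.16 ± 0.65, adjusted p = 1.62e-05). Mmp7, matrilysin, read -3.11, -5.25 and -4.60 at day 0 and 2.12, 0.52 and 2.65 at day 14 (6.08 ± 0.95, adjusted p = 0.00076). The second day 14 array was the lowest of its day for both enzymes. Mmp9, gelatinase B, rose by 4.61 ± 0.76 (adjusted p = 0.00109). Mmp17, a membrane-anchored metalloproteinase, fell by 3.29 ± 0.33 (adjusted p = 6.4e-05), and the inhibitor Timp3 fell by 2.38 ± 0.27 (adjusted p = 0.000128) while Timp1, Timp2 and Timp4 did not pass the test. In all 10 of 22 members rose and 3 fell, and the block by slide kept 3 of the 13 calls. Spp1, osteopontin, a secreted phosphoprotein of macrophages and bone, read 0.76, -0.23 and 0.04 at day 0 and 7.22, 7.22 and 7.10 at day 14 and rose by 6.99 ± 0.29 (adjusted p = 6.49e-07). Over the whole bone and cartilage list, Spp1 included, 5 of 19 rose, 3 fell and the median was 0.00 (4 called with normexp), with the osteoblast factors Dlx5 and Sp7 lower (-1.54 ± 0.40 and -1.12 ± 0.28, adjusted p = 0.0119 and 0.0101), both lost with normexp (-0.75 and -0.86, adjusted p = 0.442 and 0.108).

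Signalling families of the TGF-beta superfamily had counts in both directions. Among TGF-beta and activin genes 8 of 18 rose and 2 fell; Tgfb1, the ligand most tied to fibrosis, rose by 2.86 ± 0.36 (adjusted p = 0.000199) and its signalling receptor Tgfbr1 by 2.61 ± 0.18 (adjusted p = 6.31e-06). Inhba, the activin A subunit, fell by 2.84 ± 0.59 (adjusted p = 0.00406). In the BMP branch, of 23 BMP genes 10 fell and 3 rose, with a median of -0.94, and the block by slide kept 3 of the 13 calls against 2 of the 10 in the TGF-beta list. The difference between the lists was not tested.

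The 3 largest changes of the BMP list were falls. Id4, an inhibitor of helix-loop-helix factors and a BMP target, read 4.28, 4.71 and 4.13 at day 0 and -2.07, -1.64 and -2.16 at day 14, an 80.4-fold lower signal (-6.33 ± 0.47, adjusted p = 1.04e-05). Gdf10, the ligand BMP3b, read -0.67, -0.23 and -0.09 before surgery and -5.66, -6.23 and -5.32 at day 14 (-5.41 ± 0.64, adjusted p = 0.000155). Its change from day 0 was -3.38 at day 7 and -0.66 at day 28, 2 comparisons that share the day 0 arrays with this one. Chrdl1, a secreted BMP antagonist, went from 2.73, 3.77 and 2.42 to -2.55, -2.34 and -2.43 (-5.41 ± 0.88, adjusted p = 0.001). Upward, Bmp3, a ligand that opposes osteogenic BMPs, went from -4.13, -3.62 and -3.52 to 0.46, 0.72 and 0.33 (4.26 ± 0.75, adjusted p = 0.00162). The days were apart on every array for all 4 genes.

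Wnt genes showed no common direction, with 6 of 28 higher, 5 lower and a median of 0.15 (5 called with normexp, median 0.01). Sfrp4 and Sfrp2, secreted Wnt-binding proteins, rose by 3.32 ± 0.63 (adjusted p = 0.00248) and 2.46 ± 0.64 (adjusted p = 0.0128), and Axin2, a feedback target of the canonical pathway, fell by 1.93 ± 0.23 (adjusted p = 0.000169). Among growth factors and their receptors 9 of 32 fell and 4 rose. The FGF receptors differed: Fgfr1 rose by 2.08 ± 0.39 (adjusted p = 0.00212), and Fgfr2, common in epithelium and perivascular cells, fell by 3.46 ± 0.52 (adjusted p = 0.000596). Fgf2, a mitogen of smooth muscle and endothelium, fell by 2.62 ± 0.27 (adjusted p = 7.46e-05). Pdgfra, the PDGF receptor of fibroblasts, rose by 1.75 ± 0.36 (adjusted p = 0.00359), whereas the 4 PDGF ligand genes and Pdgfrb did not pass the test.

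Phagocyte genes were higher almost without exception. Of 26 tested receptors and signalling proteins 25 rose, none fell and the median was 4.20; Plek, pleckstrin, did not pass the test. Lilrb2, an inhibitory immunoglobulin-like receptor of myeloid cells, read -5.02, -5.48 and -6.90 at day 0 and 1.25, 1.65 and 1.08 at day 14, a 139-fold higher signal (7.12 ± 0.59, adjusted p = 1.87e-05). Itgam, the integrin chain CD11b, read -3.82, -5.03 and -6.11 at day 0 and 1.33, 1.19 and 1.67 at day 14 (6.38 ± 0.45, adjusted p = 7.36e-06). Both were well above background on 2 of the 3 day 0 arrays and on all day 14 arrays. Spi1, the factor PU.1 that directs myeloid development, rose by 2.75 (adjusted p = 0.000696; named here after its value was seen). The block by slide kept 7 of the 25 calls with a median of 3.61. The list's median level was higher on day 0 replicate 1, at -0.32, than on replicates 2 and 3, at -1.96 and -2.20, and lay between 2.60 and 3.14 on the day 14 arrays. The defining macrophage gene Cd163, a haemoglobin scavenger receptor, was not well above background on any of the 6 arrays, whereas Cd68, a lysosomal glycoprotein, rose by 4.26 ± 0.66 (adjusted p = 0.000993) with 1 day 0 array missing as an outlier.

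Promoters of these phagocyte genes were searched for the letters GAGGAAGT, a form of the box that PU.1 binds, on both strands of the 250 bases before the RefSeq start (build GRCr8). Of 14 tested members with a promoter entry 5 held a match, against 2.2% of 27457 genes; a match is a description of letters and not a shown site. The windows below are from the 4 matching members with the largest rises, in the direction of the gene, with the match in capitals, here the reverse complement.
Lilrb2, chr1:74242157-74242199, plus strand: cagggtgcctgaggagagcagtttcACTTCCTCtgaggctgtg
Cd37, chr1:104860831-104860888, minus strand: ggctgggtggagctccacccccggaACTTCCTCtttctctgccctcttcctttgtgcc
Cd53, chr2:197087910-197087967, minus strand: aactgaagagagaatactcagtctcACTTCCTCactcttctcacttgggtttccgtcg
Fcgr3a, chr13:85782555-85782612, plus strand: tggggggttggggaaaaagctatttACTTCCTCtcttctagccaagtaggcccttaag
In these windows the match ended 10 bases before the start in Lilrb2, 71 in Cd37, 38 in Cd53 and 48 in Fcgr3a. Cd37 and Cd53 encode tetraspanins of leukocytes and Fcgr3a an activating receptor for immunoglobulin G; their signals rose by 5.95, 5.60 and 5.0.

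Lysosomal genes were higher too. Of 30 lysosomal enzymes and membrane proteins 22 rose and none fell (median 1.21), and of 15 proton pump subunits 9 rose and none fell (median 0.78). Atp6v0d2, the pump subunit of osteoclasts and activated macrophages, read -4.58, -3.97 and -3.82 at day 0 and 2.76, 2.05 and 3.07 at day 14, a 108-fold higher signal (6.75 ± 0.32, adjusted p = 8.68e-07). Tcirg1, the pump subunit that osteoclasts need to dissolve bone, rose by 3.06 ± 0.47 (adjusted p = 0.000726). Atp6v0a1 and Atp6v0d1, the widely expressed forms of these subunits, did not pass the test. Other pump subunits did, and Atp6v1b2, Atp6v1a and Atp6v1c1 were among the called rises (named after their values were seen). Ctss, a cysteine protease that processes antigen and elastin, rose by 4.35 ± 0.62 (adjusted p = 0.000432), and the asparaginyl protease Lgmn by 3.62 ± 0.45 (adjusted p = 0.000193). Trem2, a lipid-sensing receptor of macrophages, went from 0.79, -0.86 and -1.18 to 5.48, 5.24 and 5.64 (5.87 ± 0.41, adjusted p = 7.46e-06). Tfeb, a master regulator of lysosomal genes, did not pass the test. Slide blocking kept 5 of the 22 lysosomal and 4 of the 9 pump calls. A promoter search for the E-box letters CACGTG found a match in 4 of 24 lysosomal genes with an entry, against 6.18% of all genes. Among called lysosomal genes it was 2 of 16. A like search of the contractile smooth muscle list for the CArG box motif found 2 of 12, against 1.62% of all genes, and 1 of 10 among called members.

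Lipid handling and oxidant genes changed in part. Of 21 scavenging and lipid handling genes 12 rose and 1 fell, the fall being Fabp4, a fatty acid carrier of fat cells, endothelium and macrophages (-1.73 ± 0.25, adjusted p = 0.000429). Gpnmb, a glycoprotein of lipid-laden macrophages, rose by 4.24 ± 0.54 (adjusted p = 0.000243) and Apoc1, an apolipoprotein, by 4.41 ± 0.62 (adjusted p = 0.000404). The phagocyte oxidase subunits Ncf1 and Cybb rose by 5.48 ± 0.67 (adjusted p = 0.000179) and 4.83 ± 0.50 (adjusted p = 6.71e-05). Antioxidant genes went both ways: Hmox1 and Srxn1 were among the 7 higher members of that list of 22, and 3 fell. Gsta1, a glutathione transferase, fell by 3.79 ± 0.30 (adjusted p = 1.64e-05), Sod3, the extracellular superoxide dismutase of vessel walls, by 2.71 ± 0.50 (adjusted p = 0.00195) and Sod1 by 1.18 ± 0.21 (adjusted p = 0.00191). Slc11a1, a metal transporter of the phagosome, rose by 5.44 ± 0.53 (adjusted p = 4.89e-05).

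Chemokines and their receptors were mostly higher. Of 38 tested members 24 rose, 5 fell and the median was 2.49. Cx3cr1, the fractalkine receptor of monocytes, read -3.96, -5.96 and -7.96 at day 0 and 0.26, 0.76 and 0.19 at day 14 (6.36 ± 0.74, adjusted p = 0.000138). Ccl3, a macrophage chemokine, and Ccl20, which attracts CCR6 cells, both rose by 5.68 (SE 0.85 and 0.92, adjusted p = 0.000618 and 0.000993). Ccl21, the lymphatic chemokine that draws CCR7 cells, read 4.98, 5.91 and 5.61 at day 0 and -0.21, 0.93 and -1.32 at day 14 and fell by 5.70 ± 0.54 (adjusted p = 4.5e-05). Ccl19, the other CCR7 ligand, fell by 3.87 ± 0.34 (adjusted p = 3.04e-05), and Ccr7 itself did not pass the test. For Ccl21 the change from day 0 was -3.67 at day 7 and -0.71 at day 28, and for Ccl19 it was -3.97 and -4.07. With slide as a block, limma kept 5 of the 29 calls in this list.

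Antigen presentation and pattern recognition genes that changed were all higher, 11 of 20 and 13 of 20. With slide as a fixed block, 3 of the 11 and none of the 13 calls were kept. Cd86, a costimulatory ligand, had no day 0 array well above background, and its day 14 signal was at least 21.6-fold higher (adjusted p = 4.12e-06). The class II chains Cd74 and RT1-Ba rose by 4.98 ± 0.61 (adjusted p = 0.000183) and 4.98 ± 0.75 (adjusted p = 0.000645), with the second day 14 array lowest for both. The class I partners B2m, Tap1 and Tap2 did not pass the test, while Tapbp, another class I partner, was among the called rises (named after its value was seen). Il1rn, the interleukin-1 receptor antagonist, rose by 5.19 ± 0.54 (adjusted p = 7.29e-05) and Tlr2, a receptor for bacterial lipopeptides, by 5.12 ± 1.08 (adjusted p = 0.0044), with day 0 values of -1.85, -5.45 and -7.70. Complement leaned upward with 10 of 23 higher and 1 lower, Cd59b, an inhibitor of the terminal pore, at -3.42 ± 0.37 (adjusted p = 8.71e-05). Of the complement calls the block by slide kept 1.

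T cell genes rose in 17 of 24 tested members, and none fell (median 1.52), with the block keeping 2 of the 17 calls. With normexp 9 members were called and the median was 0.98. Cd4, the class II coreceptor that rat macrophages also carry, rose by 4.70 ± 0.46 (adjusted p = 5.15e-05). Gzmb, the cytotoxic protease granzyme B, rose by 4.38 ± 0.70 (adjusted p = 0.000875; with normexp 1.61, adjusted p = 0.0753) and Il7r, the interleukin-7 receptor, by 4.73 ± 0.52 (adjusted p = 9.35e-05). Of the defining subunits Cd3e rose by 2.57 (adjusted p = 0.00371) while Cd3d had a change of 0.55 (adjusted p = 0.0396) that was lost without day 0 replicate 2 or 3 and without day 14 replicate 1 or 2, with an adjusted p of up to 0.136. These CD3 genes are given as defining markers, outside the naming rule. Cd3g could not be read as a group, since day 0 replicate 3 stood at 5.80 against -0.05 and -0.53. B and plasma cell genes stayed near the background share, 3 of 11 higher and none lower with a median of 0.09, and 1 was called with normexp; Pax5, the B lineage factor, was among the 3 (1.99 ± 0.46, adjusted p = 0.00698).

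Of 30 tested interferon response genes 17 rose, 1 fell and the median was 1.19. Mx1, a dynamin-like antiviral protein, rose by 3.48 ± 0.51 (adjusted p = 0.000524), Irf5, a factor of inflammatory macrophages, by 3.48 ± 0.35 (adjusted p = 6.51e-05) and Oasl by 3.28 ± 0.50 (adjusted p = 0.000659), while Irf1 and Irf9 did not pass the test and Ifi27 fell by 1.18 ± 0.22 (adjusted p = 0.00198). The call of Ifi27 was lost with quantile normalization and with the deposited table (-0.77 in both, adjusted p = 0.0639 and 0.0629). Measured against day 7 directly, 3 members of the list were lower at day 14 and none was higher. A fixed slide block kept 3 of the 18 calls.

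Promoters of this list were searched for GAAANNGAAA, the core of the interferon-stimulated response element, in the same 250 bases and on both strands. A match stood in 13 of 21 members with an entry, against 3.61% of all 27457 genes. It was found in 7 of the 13 called members with an entry, so it was present among called and uncalled members. The 4 called members with a match and the largest change are shown, with the match nearest the start in capitals. In Oas1a a further match, mostly in lower case, overlaps the marked match on its left. Ifit3 encodes an RNA-binding antiviral protein, Oas1a an oligoadenylate synthase, Isg20 an exonuclease and Irf7 the factor that amplifies the response.
Ifit3, chr1:241527257-241527316, plus strand: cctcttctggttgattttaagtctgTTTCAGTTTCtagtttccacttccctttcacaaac
Oas1a, chr12:41330406-41330465, plus strand: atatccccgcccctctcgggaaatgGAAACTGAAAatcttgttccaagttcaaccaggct
Isg20, chr1:142239942-142240001, plus strand: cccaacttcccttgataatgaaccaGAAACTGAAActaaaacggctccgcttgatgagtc
Irf7, chr1:205800058-205800117, minus strand: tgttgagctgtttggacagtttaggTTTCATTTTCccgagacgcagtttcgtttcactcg
The marked match lay 34 bases before the start in Ifit3, 25 in Oas1a, 82 in Isg20 and 59 in Irf7, and the genes rose by 2.5, 2.41, 1.97 and 1.63.

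Cell division genes were higher at day 14. Of 24 tested mitosis genes 16 rose and none fell (median 2.17), and of 20 DNA replication genes 14 rose and none fell (median 1.15). Ccna2, cyclin A2, read -2.57, -4.66 and -5.73 at day 0 and -0.37, -0.67 and -0.13 at day 14 (3.93 ± 0.60, adjusted p = 0.000689). Kif2c, a kinesin that takes apart microtubule ends, went from -2.81, -4.88 and -6.77 to -1.02, -1.36 and -0.94 (3.71 ± 0.73, adjusted p = 0.00301), and Kif20a, a kinesin of the closing spindle, from -1.76, -3.94 and -3.78 to 0.49, 0.31 and 0.75 (3.68 ± 0.47, adjusted p = 0.000225). Day 0 replicate 1 was the highest control array for all 3 genes and still lay below the day 14 arrays. Mcm10, which loads the replication machinery, rose by 2.96 ± 0.33 (adjusted p = 9.73e-05), and Pcna did not pass the test. The median of the mitosis list was 1.69 at day 7 and 1.52 at day 28 against the same day 0 arrays, and 2 members were higher at day 14 than at day 7 when tested directly. The block by slide kept 2 of the 16 mitosis and 1 of the 14 replication calls. TTTGAA, the letters of the cell cycle homology region, stood in the 250 bases before the start of 8 of 17 mitosis genes with an entry, against 17.2% of all genes, and the matching called members with the largest rises were Cenpa, the histone variant of centromeres, and Hmmr, a spindle protein that also binds hyaluronan.
Cenpa, chr6:31431638-31431693, minus strand: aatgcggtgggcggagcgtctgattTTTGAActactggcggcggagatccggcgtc
Hmmr, chr10:25665231-25665286, minus strand: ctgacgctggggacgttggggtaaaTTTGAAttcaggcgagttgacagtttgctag
Their signals rose by 3.53 and 3.36.

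Cell cycle inhibitors and survival genes moved in part. Cdkn1b, the inhibitor p27, fell by 1.24 ± 0.23 (adjusted p = 0.00198) and Ccnd2, a G1 cyclin, fell by 1.84 ± 0.35 (adjusted p = 0.0023). The cyclin list as a whole had 9 of 21 higher and 3 lower. The inhibitors Cdkn1a, Cdkn1c and Cdkn2a were among the higher members (named after their values were seen). Among apoptosis genes 15 of 26 rose and 3 fell, with 10 called under normexp. Bcl2a1, a survival factor of leukocytes, read 0.36, -1.85 and -2.11 at day 0 and 3.39, 3.43 and 3.53 at day 14 (4.65 ± 0.57, adjusted p = 0.00018), whereas its relative Bcl2 fell by 0.74 ± 0.17 (adjusted p = 0.007; with normexp -0.56, adjusted p = 0.459). The immediate-early genes Fos, Jun, Egr1 and Atf3 did not pass the test, and Fosl1, a later AP-1 subunit, rose by 3.24 ± 0.56 (adjusted p = 0.00134; with normexp 0.88, adjusted p = 0.314). Klf15 and Klf9, both glucocorticoid-responsive factors, fell by 3.61 ± 0.41 (adjusted p = 0.00012) and 2.36 ± 0.34 (adjusted p = 0.000448). Of the clock genes 4 of 14 fell and 1 rose; sampling hours are not given, so the hour of collection cannot be told apart from the day. In the unfolded protein response 7 of 22 rose and 5 fell (7 called with normexp), with Calr, a calcium-binding chaperone, higher (2.43 ± 0.27, adjusted p = 9.84e-05) and Atf4, the factor of the integrated stress response, lower (-1.22 ± 0.18, adjusted p = 0.000499).

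Genes of oxidative metabolism were lower. Of 43 respiratory chain genes 28 fell and none rose, with a median of -0.87, and of 34 genes of the citric acid cycle and fatty acid oxidation 14 fell and 3 rose. Ndufs4, a subunit of complex I, fell by 2.97 ± 0.25 (adjusted p = 1.92e-05), Cox8a, a subunit of cytochrome oxidase, by 2.04 ± 0.21 (adjusted p = 7.22e-05) and Acadm, the medium-chain acyl-CoA dehydrogenase, by 1.88 ± 0.22 (adjusted p = 0.000132). The list median lay between 3.67 and 4.23 on the day 0 arrays and between 2.65 and 2.94 on the day 14 arrays, so the days were apart. Slide blocking kept 4 of the 28 calls, at a median of -0.69. Of 43 ribosomal protein genes 10 fell and 1 rose, and of 29 proteasome genes 5 fell, with medians of -0.19 and -0.28; normexp called 5 and 2 members.

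Glycolysis genes showed no common direction, with 3 of 24 higher and 4 lower. The share called, 29.2%, was below the 40.9% over all tested genes. Hk3 and Hk2, the hexokinases of leukocytes and of muscle and activated cells, rose by 4.82 ± 0.45 (adjusted p = 3.78e-05) and 4.04 ± 0.52 (adjusted p = 0.000246), Slc2a4, the insulin-sensitive glucose transporter, fell by 4.69 ± 0.54 (adjusted p = 0.000121) and Pfkp, a phosphofructokinase, fell by 4.37 ± 0.35 (adjusted p = 1.62e-05). Pdk4, which blocks pyruvate entry into mitochondria, was not well above background at day 14 and was at least 20.5-fold lower (adjusted p = 7.29e-05; with normexp the change was -1.75, adjusted p = 0.119). Most enzymes of the pathway, 17 of 24, did not pass the test. Of the hypoxia list 6 of 13 fell and 2 rose (5 called with normexp), with Arg1, arginase 1, higher (3.83 ± 0.57, adjusted p = 0.00059) and Epas1, HIF-2alpha, lower (-1.85 ± 0.23, adjusted p = 0.000199).

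Lipid synthesis and lipid mediators held strong single changes. Of 19 fatty acid and triglyceride synthesis genes 5 rose and 4 fell, with a median of -0.04 (5 called with normexp, median -0.11). Thrsp, a lipogenic nuclear protein of fat and liver, read 1.79, 0.27 and 0.58 at day 0 and -6.29, -5.51 and -6.49 at day 14, a 126-fold lower signal (-6.98 ± 0.44, adjusted p = 4.56e-06), and Cidec, which enlarges lipid droplets in fat cells, went from 2.18, 1.52 and 0.98 to -4.20, -4.10 and -4.38 (-5.79 ± 0.29, adjusted p = 1.05e-06). Elovl6, a fatty acid elongase, rose by 3.12 ± 0.26 (adjusted p = 2.01e-05). Its change from day 0 was 1.41 at day 7 and 1.03 at day 28. The prostanoid list had 9 of 25 higher and 4 lower. Ptger2, a receptor for prostaglandin E2, read -6.85, -6.58 and -7.81 at day 0, not well above background on any array, and -1.70, -1.72 and -1.62 at day 14, at least 18.3-fold higher (adjusted p = 4.88e-06). Tbxas1, thromboxane synthase, read -1.69, -3.82 and -3.76 at day 0 and 2.24, 1.46 and 2.53 at day 14 (5.17 ± 0.52, adjusted p = 5.7e-05), while Tbxa2r, the receptor of its product on smooth muscle and platelets, fell by 1.86 ± 0.33 (adjusted p = 0.00156). Ptgs1, Ptgs2 and Ptgis, the cyclooxygenases and prostacyclin synthase, did not pass the test.

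Of 21 coagulation and fibrinolysis genes 11 rose and 2 fell. The risers included procoagulant, anticoagulant and fibrinolytic genes, and both falls were of endothelial receptors in the anticoagulant protein C pathway: Procr, the protein C receptor, fell by 2.72 ± 0.28 (adjusted p = 6.69e-05) and Thbd, thrombomodulin, by 2.18 ± 0.22 (adjusted p = 6.69e-05). Serpinb2, an inhibitor of plasminogen activators in macrophages, read -7.99, -6.57 and -7.94 at day 0, not well above background, and -2.67, -3.99 and -2.35 at day 14, at least 7.3-fold higher (adjusted p = 6.76e-05; with normexp the change was 1.20, adjusted p = 0.2). F10, coagulation factor X, rose by 4.31 ± 0.57 (adjusted p = 0.000296). F3, tissue factor, did not pass the test. With slide as a block, limma kept 3 of the 13 calls, and normexp called 8 members.

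Some plasma proteins of mainly hepatic origin were higher at day 14 than at the neighbouring days. Of 16 tested members 7 rose and 1 fell against day 0, with a median of 1.84; the medians were -0.55 at day 7 and -0.80 at day 28 against the same controls. Measured directly, 4 members were higher at day 14 than at day 7 and 5 were higher than at day 28, against 3.26% and 4.48% of all tested probes called in those comparisons in either direction. Fgg, the fibrinogen gamma chain, read -7.88, -7.64 and -7.95 at day 0, not well above background, and -0.62, -2.87 and -0.02 at day 14, at least 26-fold higher (adjusted p = 5.18e-05; with normexp the change was 2.51, adjusted p = 0.0567). Alb, albumin, read -2.41, -1.95 and -2.15 at day 0 and 3.49, 1.38 and 3.95 at day 14 (5.11 ± 0.53, adjusted p = 7.09e-05), while its change from day 0 was -2.62 at day 7 and -2.55 at day 28. A2m, alpha-2-macroglobulin, a broad protease inhibitor, read -2.21, -4.91 and -4.25 at day 0 and 2.89, 2.67 and 2.91 at day 14 (6.61 ± 0.54, adjusted p = 1.8e-05), and was also high at day 7 (5.84) and day 28 (5.23). The second day 14 array was lowest for Fgg and Alb, and 7 of the 16 members were at least 2-fold lower on it than on both other day 14 arrays while 3 were at least 2-fold higher, against 1.21% and 2.02% of all tested probes; A2m hardly differed between the arrays. A fixed slide block kept 3 of the 8 calls. With normexp 3 members were called and the median was 0.57.

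Markers of other tissues changed as well. Fat cell genes fell in 7 of 9 tested members, with none higher and a median of -2.92. The block by slide kept 4 of the 7 calls, and with normexp 3 members were called with a median of -1.45. Adipoq, adiponectin, read 3.57, 2.20 and 1.96 at day 0 and -5.47, -5.21 and -6.34 at day 14 (-8.25 ± 0.44, adjusted p = 1.81e-06), and Retn, resistin, read 3.49, 2.84 and 2.72 at day 0 and -4.06, -4.22 and -5.04 at day 14 (-7.45 ± 0.48, adjusted p = 5.37e-06). The list's median level was between -1.75 and -0.45 on the day 0 arrays and between -4.23 and -4.06 on the day 14 arrays. The part of fat around the vessel in the falls of Thrsp, Cidec, Slc2a4 and Fabp4 was not tested. Nerve support genes also fell: Ntf3, neurotrophin-3, read 0.24, 1.01 and 0.71 at day 0 and -7.75, -8.58 and -8.58 at day 14, where it was not well above background, and was at least 139-fold lower (adjusted p = 1.45e-05). Its receptor Ntrk3 fell by 3.73 ± 0.68 (adjusted p = 0.0019). The myelin gene Mbp fell by 3.47 ± 0.79 (adjusted p = 0.00619), with 4 of 23 Schwann cell and nerve genes lower and 4 higher, and 4 called with normexp. Among the latter Ncam1, a neural adhesion molecule also found on regenerating muscle and leukocytes, rose by 5.34 ± 0.38 (adjusted p = 7.58e-06).

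Mesothelial and simple epithelial genes rose in 6 of 12 tested members and 1 fell, with 4 called under normexp and a median of 0.44 there against 1.22. Msln, mesothelin, read 2.47, -3.25 and -6.63 at day 0 and 4.43, 4.12 and 4.61 at day 14 (6.86 ± 1.72, adjusted p = 0.0106), so its day 0 arrays spanned a wider range than any other gene drawn. Wt1, a transcription factor of mesothelium and of activated vascular cells, was not well above background on any day 0 array and read -1.60, -1.87 and -1.30 at day 14, at least 19.5-fold higher (adjusted p = 3.97e-07). Krt8, Krt18 and Epcam did not pass the test.

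Skeletal muscle genes were uneven among the day 14 arrays. Of 18 tested genes of mature muscle 5 rose and none fell, 27.8% against the 22.5% of all genes that were higher. Their median change was 1.43, against 5.28 at day 28 with the same controls. Of 10 genes of regenerating muscle 7 rose and 1 fell. The defining markers Acta1, Ckm, Myl11 and Myh4 (0.45, 0.98, 1.36 and 2.08) and Myog (-1.13) did not pass the test. The markers Tnnc2, given next, and Myh3 (4.33, adjusted p = 0.0156) rose. Tnnc2, fast troponin C, read -2.87, -2.51 and -3.40 at day 0 and 3.15, -0.77 and 3.71 at day 14 (4.96 ± 1.22, adjusted p = 0.00965). For the regenerating genes the median was 3.43, and 5 of the 10 were not well above background on any day 0 array. With normexp 2 regenerating genes were called, with a median of 1.20. Of the 18 mature genes 15 were at least 2-fold lower on the second day 14 array than on both others, and of the 10 regenerating genes 7 were; over all tested probes 1.21% were. Median levels of the mature list were 0.99, -1.81 and 1.56 on the day 14 arrays, against -2.04 to -1.60 at day 0. Tnnt2, the cardiac troponin T that developing muscle also makes, was even across the day 14 arrays at 3.56, 3.52 and 3.73 and rose by 4.66 ± 0.30 (adjusted p = 4.88e-06). In its list of cardiac-type muscle genes 3 of 12 rose and 4 fell, with a median of -0.61 (4 called with normexp). The falls were Nppa, Myh6, Tnni3 and Myl2. The second array was highest of the day for 4 of 10 erythroid genes by at least 2-fold, against 2.02% of all tested probes, among them Slc4a1, the band 3 anion exchanger, at 1.01, 2.04 and -0.06. Against day 0, 4 of the 10 erythroid genes were called higher and none lower, and normexp called 1. The call of Slc4a1 against day 0 (1.98 ± 0.59, adjusted p = 0.0228) was lost without day 0 replicate 1 (0.0699), without day 14 replicate 1 (0.0617) or 2 (0.0841) and with normexp (0.0724). Myl1, a fast myosin light chain, had a change of 4.59 ± 1.27 (adjusted p = 0.0168) that was lost without day 14 replicate 1 (3.97, adjusted p = 0.0663) or 3 (3.64, adjusted p = 0.07). The block by slide kept none of the calls in the lists of mature and regenerating skeletal muscle.

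**Figure D4:**
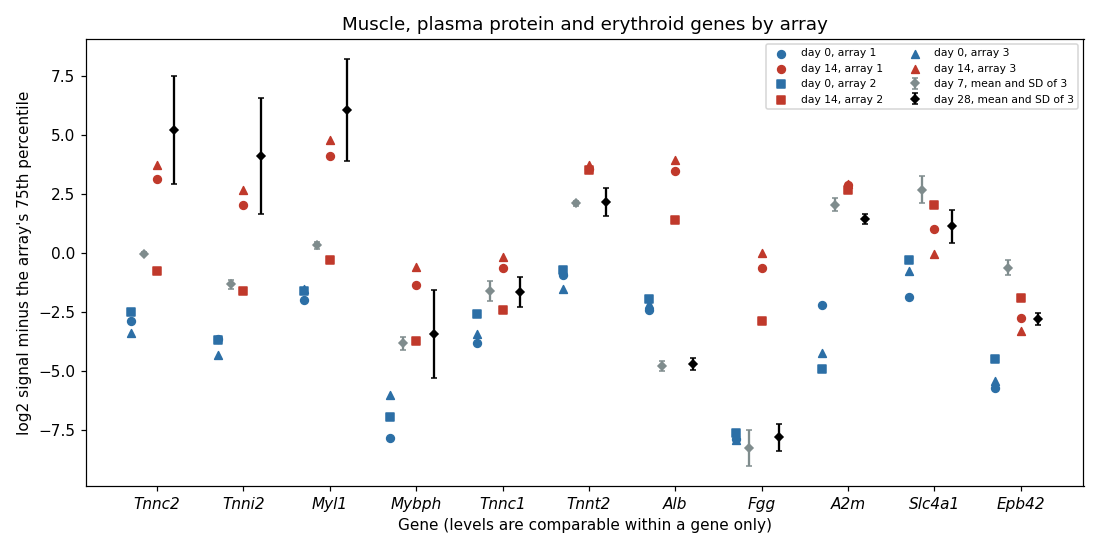
Log2 signal (minus the array's 75th percentile) of muscle, plasma protein and erythroid genes on each day 0 array (blue) and day 14 array (red, marker shape gives the array), with the mean and SD of the 3 day 7 arrays (grey) and of the 3 day 28 arrays (black). The square marks the second day 14 array, which is lowest of its day for Tnnc2 (-0.77), Alb (1.38) and Fgg (-2.87) and highest for Slc4a1 (2.04).

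Genes outside every list were ranked by moderated t among probes well above background on all 6 arrays. The highest was Adcy7, an adenylyl cyclase of leukocytes, at -3.49, -3.36 and -3.72 on day 0 and 0.48, 0.42 and 0.68 on day 14 (4.05 ± 0.15, adjusted p = 3.97e-07). It was followed by Mpeg1, the pore-forming perforin-2 of macrophages (6.09 ± 0.32, adjusted p = 1.4e-06), and Il1rl1, the interleukin-33 receptor (6.53 ± 0.34, adjusted p = 1.4e-06). Nek6, Otulinl, Fam20c, Cd300lf, Cd83, Gpr39 and Madd completed the 10 highest, with changes from 2.58 to 6.03. All 10 were higher on each day 14 array than on each day 0 array. Of all tested probes, 51.0% did not overlap between the days in either direction. The 10 genes stayed under an adjusted p of 0.05 with the block by slide, against 4.91% of all tested probes. The ranking used the same arrays, so neither is separate support.

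The lowest moderated t was that of Cmahp, the rat entry for the sialic acid hydroxylase gene, which read 0.31, 0.58 and 0.57 at day 0 and -4.76, -4.66 and -4.57 at day 14 (-5.15 ± 0.18, adjusted p = 3.97e-07). Cytl1, a small secreted protein of cartilage and vessels, had the largest fall of the 10, from 3.86, 5.14 and 4.95 to -2.0, -1.73 and -2.40 (-6.69 ± 0.31, adjusted p = 7.55e-07). Tacr3, the neurokinin B receptor, fell by 5.73 ± 0.24 (adjusted p = 6.49e-07), Npy1r, a neuropeptide Y receptor of vascular smooth muscle, by 4.80 ± 0.24 (adjusted p = 1.11e-06), Slc22a3, an organic cation transporter, by 5.39 ± 0.25 (adjusted p = 7.55e-07) and Enpp2, autotaxin, which makes lysophosphatidic acid, by 5.57 ± 0.31 (adjusted p = 2.19e-06). Nrip3, Perp, Amigo2 and Cyb5r2 completed the set. Slide blocking kept all 10 calls, again on the arrays that gave the ranking.

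By transcript class, of 13625 tested probes for coding RefSeq records 40.9% were called, with 3047 higher and 2521 lower. Of 1439 predicted non-coding RefSeq records 28.9% were called, with 280 higher and 136 lower and a median of 0.26. Probes with other MR identifiers, a set of non-coding transcripts whose names the files do not pair with genes, had 414 of 2929 higher and 556 lower and a median of -0.15. Probes of the ultraconserved uc. class were called in 23.8% of 576. These differences between classes were not tested.

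Common reference genes gave a check on scale. Of 15 tested members 11 did not pass the test and the median was 0.06, with 1 called under normexp. Gapdh and Actb changed by 0.29 and 0.06, with adjusted p of 0.337 and 0.833. Gusb, the lysosomal beta-glucuronidase, rose by 2.10 ± 0.29 (adjusted p = 0.000404), and Sdha, a subunit of the respiratory chain, and Tbp, the TATA-binding protein, changed by -0.87 and -0.71 (adjusted p = 0.0188 and 0.00582). The call of Sdha was lost without day 14 replicate 2 (-0.72, adjusted p = 0.0719), and normexp lost both (adjusted p = 0.0979 and 0.257).

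The neighbouring days were compared as well. Measured directly, 687 probes (3.26%) differed between day 14 and day 7 and 944 (4.48%) between day 14 and day 28. Contractile smooth muscle had medians of -2.72, -3.06 and -2.35 at day 7, 14 and 28 against the shared day 0 arrays, and 1 member was lower at day 14 than at day 28. For phagocyte genes the medians were 4.24, 4.20 and 3.28, with 2 members higher at day 14 than at day 28. BMP genes had -0.18, -0.94 and -0.05, with 5 members lower at day 14 than at day 28 and none higher. Erythroid genes had 2.12, 0.78 and 0.99, with 2 members lower at day 14 than at day 7.

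**Figure D5:**
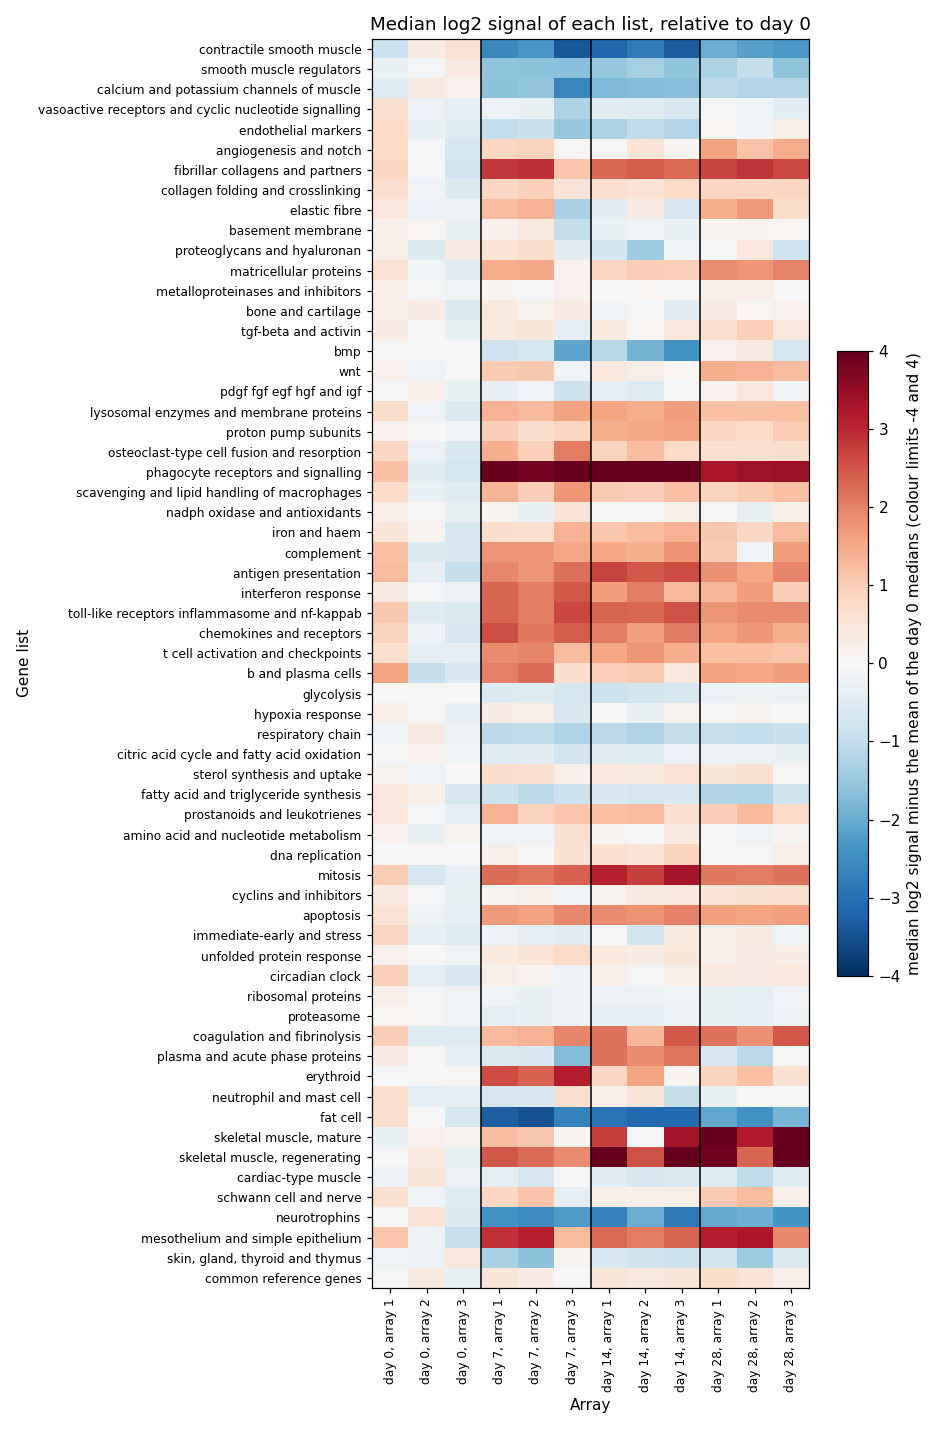
Median log2 signal of each of the 62 gene lists on each of the 12 arrays, relative to the mean of the 3 day 0 medians; red is higher and blue lower than day 0, with colour limits of -4 and 4. The day 14 columns are alike for most lists and differ for the skeletal muscle lists, where the second array is the lowest, and day 0 array 1 is the highest control column for several immune lists.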

How the data were processed

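RNA of 12 vein samples was read on single-colour arrays. The deposited scanner files hold intensity per spot as the authors' feature extraction software wrote it, background-subtracted, per the file headers. The deposited log2 value table of the same arrays, whose normalization is not given in the sources used here, served as an alternative. Log2 of the processed intensity minus the array's 75th percentile was computed here, 7348 outlier spots were left out, and spots were averaged per probe. Probes that passed as well above background on 3 or more of the 12 arrays were tested with limma 3.58.1 in R 4.3.3, with 4 group means over all 12 arrays and Benjamini-Hochberg adjustment at 0.05; p-values in the text are from this fit. The brightest tested probe stands for a gene. Tables and figures used Python 3.11.15, pandas 2.3.3, NumPy 2.4.6 and Matplotlib 3.10.9. The scripts were tested on simulated data.

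Named genes are, in each of 62 lists, up to 3 called rises and 3 called falls of largest size, and outside the lists the 10 highest and 10 lowest moderated t among called probes well above background on all 6 arrays; in each theme the 4 largest have values per array. Genes that did not pass the test, defining markers and genes of the printed promoters were named after their values were seen. The comparison and the lists were chosen with earlier results of these data known. Alternatives were other filters, background correction (normexp on the median signal, the mean signal was not used), normalizations, the deposited table, slide as a block, array weights and each array left out. The number of arrays limits the precision.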

Additional observations from a re-analysis of the deposited data

Results flagged for a closer look

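Of the named genes, 3 differed at day 14 from both day 7 and day 28 when tested directly, in the same direction and by at least 2 on the log2 scale; smaller differences and probes outside the naming rule are not given here. Fgg was higher at day 14 than at day 7 by 7.10 and than at day 28 by 6.65 (log2). Its probe was not well above background on any day 7 or day 28 array, so both values are measured differences from a dim level, not bounds. Alb was higher by 7.73 and 7.65. Cmahp was lower at day 14 by -2.48 against day 7 and by -2.09 against day 28. The second day 14 array was the lowest of its day for Fgg and Alb, and the part of that array in the differences was not tested.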

How the results depend on the processing

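No paired analysis was possible because the labels give every sample the same replicate number, so the numbers used here pair nothing. The count of called probes, 7901, was 3485 with normexp, 1034 with slide as a fixed block and 885 with the lone array joined to the slide it may belong to, a setting chosen after seeing the data; the cause was not tested. Leaving out 1 array at a time gave 5722 to 8883. The other settings gave 5766 (only the 6 arrays) to 9611 (without 2 arrays with many non-uniform spots). Signs turned for Areg with normexp (-0.03) and for Ereg with the fixed block (1.11) and with the lone array joined (0.84). Of the 297 named genes 253 kept their call in every leave-one-out fit, 77 lost it and 1 turned sign with normexp, and 198 lost it and 1 turned sign with the fixed block. Dim probes limit what can be read: where a probe was not well above background on a whole day, only a bound is given. Day 14 and day 0 share no slide, so slide enters only through day 28. The fixed block drew nothing on the change from day 14 replicate 1 and day 0 replicate 3.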
